A study of Mus musculus with 6 samples.

Results

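The matrix metalloproteases (MMPs), the ADAMTS proteases, the ADAMTS-like proteins and the tissue inhibitors of metalloproteases (TIMPs) were followed in 3 states of C2C12 cells, a mouse myoblast line. Members were the protein-coding genes whose symbol is Mmp or Timp followed by a digit, or begins with Adamts. They numbered 50, of 25308 genes with a count in the series. There were 6 membrane-type MMPs, 16 other MMPs, 19 ADAMTS proteases, 5 ADAMTS-like genes and 4 TIMPs. RNA was sequenced from 2 libraries each of myotubes, reserve cells and myoblasts. Myotubes are the fused, multinucleated product of differentiation, and reserve cells are the mononucleated cells of the same low-serum dishes that did not fuse. They were parted by mild trypsinization after 7 days by the sample labels, while the culture methods give 5 days. Myoblasts were harvested in growth near confluency. All groups come from 1 cell line with no added agent or allele, and no other cell line was compared. Replicates are called biological, but nothing states that they were separate cultures, so p-values measure only the spread between these libraries.

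MMPs and ADAMTS proteases are zinc enzymes that cut proteins of the extracellular matrix. Most are secreted as inactive precursors, and the membrane-type MMPs stay on the cell surface, where they act on the matrix next to the cell and activate other MMPs. The ADAMTS-like proteins share the binding domains of the family but lack the protease domain, and TIMPs block the active site of the proteases. In muscle these enzymes are known for matrix turnover during myoblast migration, fusion and repair.

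Libraries held 15658875 to 20055078 estimated counts. Levels are given as CPM, counts scaled to library size with TMM factors. Levels of different genes were compared only as TPM, which divides by transcript length and is scaled to library totals without TMM factors. The labels were checked against marker genes. The 6 muscle identity markers summed to 20658 and 20661 CPM in myotubes, against 6126 and 6228 CPM in reserve cells and 241 and 228 CPM in myoblasts. The 5 proliferation markers summed to 135 and 138 CPM in myotubes, against 680 and 697 CPM in reserve cells and 1627 and 1659 CPM in myoblasts. Reserve cells thus lay between the other groups in both lists, and proliferation markers were low in myotubes but not at 0. The 6 quiescence and progenitor markers summed to 216 and 215 CPM in myotubes, against 570 and 580 CPM in reserve cells and 521 and 540 CPM in myoblasts. Their median log2 fold change in reserve cells over myoblasts was −0.027, beside 0.015 over all genes. The single markers ranged from −1.93 to 2.98. The edgeR test described below called 2 of them higher and 2 lower, where 24.3% and 21.8% of all genes were. The similar sums thus hide changes in both directions. The 4 adipocyte markers had 0 counts in all libraries and the 5 endothelial markers summed to at most 1.21 CPM. The 6 macrophage markers summed to 2.28 to 3.92 CPM. In bulk RNA, fewer cells of a type and less RNA per cell cannot be told apart.

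A total of 32 members passed the filter on low counts. No count was found in any library for 9 members, and 9 more had at most 15 counts in a library. Of the 32, 20 had their highest mean CPM in reserve cells, 8 in myotubes and 4 in myoblasts. Per transcript length the inhibitor Timp2 stood first in all 3 groups, with 1093 ± 28 TPM in myotubes, against 1045 ± 21 TPM in reserve cells and 739 ± 4.9 TPM in myoblasts (SD, n = 2). The next places differed, and the TPM of Adamtsl5 rests on transcript shares that its replicates did not share. Second stood the ADAMTS-like gene Adamtsl5 in myotubes with 303 ± 33 TPM, Timp1 in reserve cells with 765 ± 1.1 TPM and the membrane-type protease Mmp14 in myoblasts with 373 ± 15 TPM. Timp1 followed Mmp14 in myoblasts with 337 ± 1.3 TPM. In the plot of levels by library, both myotube symbols lie to the right of the others for 6 genes, Timp4 narrowly, and reserve cell symbols lie to the right for most.

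**Figure D1:**
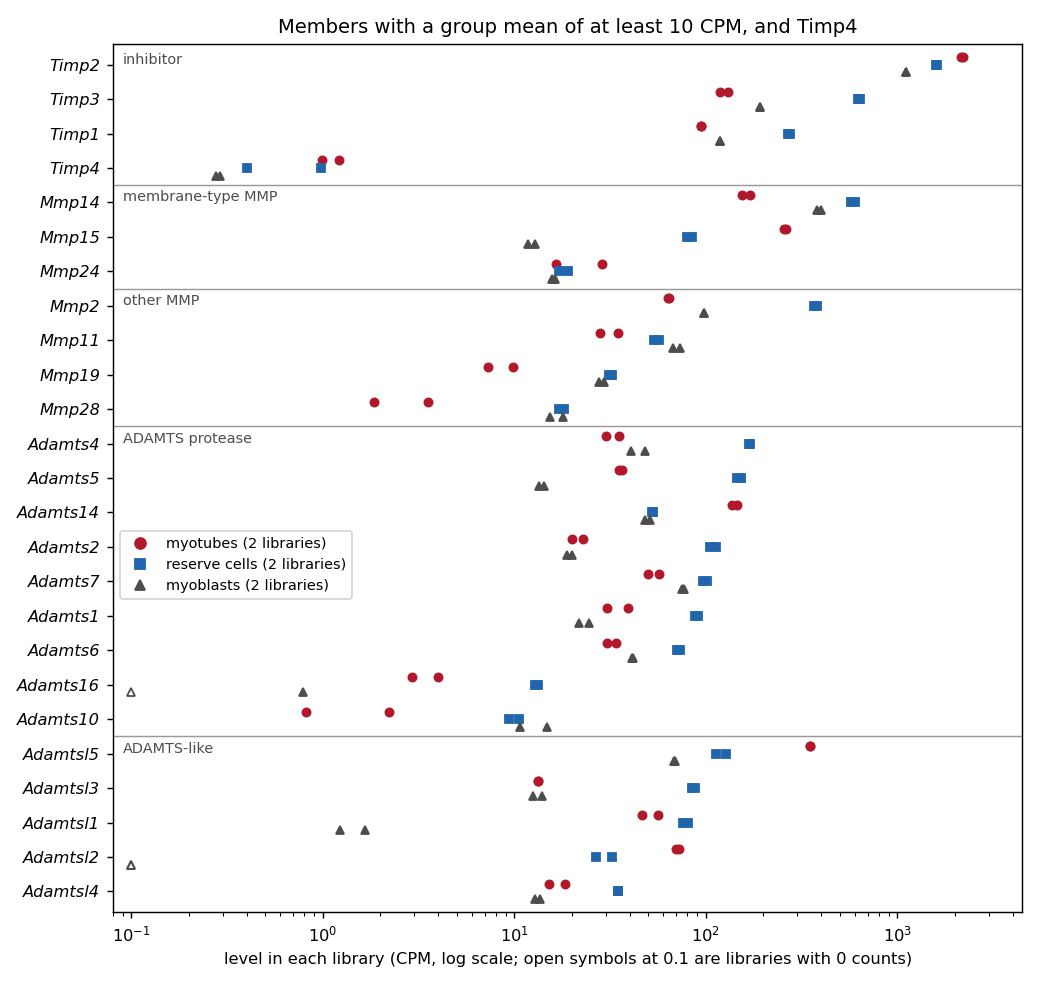
Level of the 24 members that averaged 10 CPM or more in any group, and of Timp4, in each of the 6 libraries (x axis, CPM on a log scale), ordered by role. Timp2 is the most abundant by count, Adamtsl2 has 0 counts in both myoblast libraries, and the myotube libraries of Mmp28 and Adamts10 lie below the other libraries of the same gene.

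Differences were tested with edgeR's quasi-likelihood test on all genes, and a gene was called at a Benjamini-Hochberg adjusted p under 0.05. In myotubes over myoblasts, 26 of the 32 tested members were called, of which 14 were higher and 12 lower. Over all 15467 genes tested 65.3% were called, 32.6% higher and 32.7% lower. The members' median log2 fold change was 0.08, beside 0.0045 over all genes, so they moved both ways. In reserve cells over myoblasts, 22 members were called, 21 higher and 1 lower, where 46.1% of all genes were called, 24.3% higher and 21.8% lower. Here the median was 1.23, beside 0.01 over all genes. In myotubes over reserve cells, 25 members were called, 5 higher and 20 lower, where 55.6% of all genes were called, 27.2% higher and 28.4% lower. The median was −1.44, beside −0.0067 over all genes. The 3 comparisons share libraries and are given side by side.

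The filter on low counts was passed in every group by 24 of the 32 and only through 1 or 2 groups by 8, whose selection leans towards a difference between groups. These are Adamts8, Adamts15, Adamts16, Adamts17, Adamtsl2, Mmp16, Mmp17 and Timp4, and Mmp16 and Mmp17 were called in no comparison. Among the 24, 8 were higher and 12 lower in myotubes over myoblasts, 16 higher and 1 lower in reserve cells over myoblasts, and 4 higher and 17 lower in myotubes over reserve cells. Scaling by library totals in place of TMM moved the median of all genes by −0.27 in myotubes over myoblasts and by −0.21 in myotubes over reserve cells. The members' counts were then 12 higher and 13 lower, and 5 higher and 22 lower. The single gene lower in reserve cells, Mmp11, was not called when myoblast replicate 1 or either reserve cell library was left out, so that 0 members were lower. Without those libraries edgeR gave 0, 0 and 1 member lower at an unadjusted p under 0.05, and DESeq2 on all libraries gave 1 at its adjusted p.

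**Figure D2:**
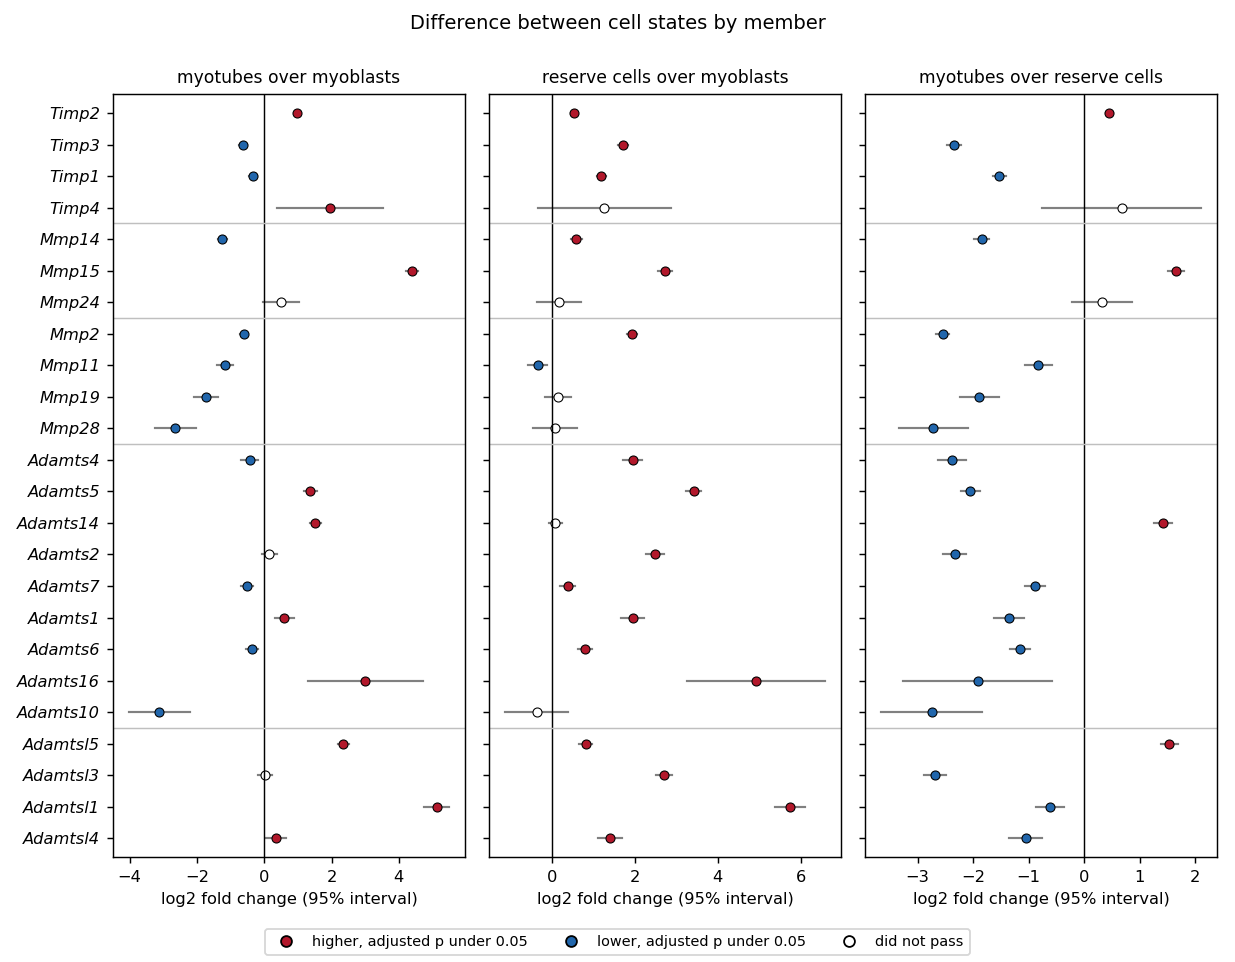
Log2 fold change of 24 members in the 3 comparisons (x axis, points, with 95% intervals as lines), filled where called by edgeR. Adamtsl2 is left out because a fitted fold against 0 counts is no measure of size. Reserve cells over myoblasts has 1 blue point, Mmp11, and myotubes over reserve cells has 4 red points, Timp2, Mmp15, Adamts14 and Adamtsl5.

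Of the 4 inhibitors, Timp2 was called in the opposite direction to Timp1 and Timp3 in myotubes. Timp2, which inhibits MMPs and also joins Mmp14 in the surface complex that activates the Mmp2 precursor, had 2158 and 2213 CPM in myotubes, against 1587 and 1607 CPM in reserve cells and 1104 and 1112 CPM in myoblasts. The 3 groups did not overlap, in the order myotubes, reserve cells, myoblasts. Its log2 fold change was 0.98 ± 0.027 (SE) in myotubes over myoblasts and 0.53 ± 0.027 in reserve cells over myoblasts, with edgeR adjusted p-values of 1.35e-08 and 1.4e-06. Timp1, a soluble inhibitor, had 93.8 and 94.3 CPM in myotubes, against 274 and 269 CPM in reserve cells and 118.7 and 118.9 CPM in myoblasts. It was highest in reserve cells and lowest in myotubes. Its log2 fold change was −0.34 ± 0.049 in myotubes over myoblasts and 1.19 ± 0.049 in reserve cells over myoblasts (edgeR adjusted p = 0.000354 and 3.43e-07). Timp3, which binds to the matrix and also inhibits Adamts4 and Adamts5, had 119 and 130 CPM in myotubes, against 623 and 641 CPM in reserve cells and 192 and 191 CPM in myoblasts. The order of the groups was that of Timp1, and the range was wider. Reserve cells were 3.3-fold above myoblasts and myotubes were 5.08-fold below reserve cells (edgeR adjusted p = 4.98e-08 and 1.53e-08). Exons of Timp3 share 1733 bases with Syn3 on the other strand, and whether the counting used strand is not given in the sources used here, so the reads of the 2 genes cannot be told apart there. Syn3 had 663 and 833 counts in myotubes, against 4345 and 4494 in reserve cells and 1018 and 1477 in myoblasts. Timp4 was near the limit of detection, with 14 and 21 counts in myotubes, against 8 and 19 in reserve cells and 5 and 6 in myoblasts. Its exons share 90 bases with Syn2 on the other strand, which had 92 and 111 counts in myotubes, against 89 and 77 in reserve cells and 6 and 11 in myoblasts. The call of Timp4 in myotubes over myoblasts (log2 fold change 1.94 ± 0.68, edgeR adjusted p = 0.0343) was lost with the replicate number as a block (adjusted p = 0.0535), in DESeq2 (adjusted p = 0.106) and without any 1 of the 4 libraries compared (adjusted p of 0.0782 to 0.151).

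The membrane-type MMPs split between Mmp14 and Mmp15. Mmp14 (MT1-MMP), a collagenase of the cell surface and the main activator of Mmp2, had 171 and 155 CPM in myotubes, against 569 and 602 CPM in reserve cells and 379 and 398 CPM in myoblasts. Myotubes lay below both other groups, and reserve cells lay above both. The log2 fold change was −1.26 ± 0.058 in myotubes over myoblasts, 0.59 ± 0.057 in reserve cells over myoblasts and −1.85 ± 0.059 in myotubes over reserve cells (edgeR adjusted p = 2.61e-07, 5.81e-05 and 8.06e-08). Mmp15 (MT2-MMP), a related surface protease, had 263 and 255 CPM in myotubes, against 79.5 and 84.8 CPM in reserve cells and 11.8 and 12.8 CPM in myoblasts. It was 21-fold higher in myotubes than in myoblasts, 6.66-fold higher in reserve cells than in myoblasts and 3.15-fold higher in myotubes than in reserve cells. All 3 were called by edgeR, with adjusted p-values of 1.07e-09, 3.18e-08 and 2.61e-07. Per length, Mmp14 was above Mmp15 in every group, but by unequal amounts. Mmp14 had 119 ± 8.1 TPM in myotubes, against 555 ± 29 TPM in reserve cells and 373 ± 15 TPM in myoblasts. Mmp15 had 94.7 ± 2.9 TPM in myotubes, against 39.1 ± 2.2 TPM in reserve cells and 6.24 ± 0.074 TPM in myoblasts. Mmp24 (MT5-MMP), known mainly from neurons, was called in no comparison and depended on 1 library. It had 28.8 and 16.5 CPM in myotubes, against 19.1 and 17.0 CPM in reserve cells and 15.8 and 16.3 CPM in myoblasts. Without myotube replicate 2 its log2 fold change in myotubes over myoblasts was 0.84 (edgeR adjusted p = 0.0018), and without myotube replicate 1 the value in myotubes over reserve cells was −0.14 (adjusted p = 0.509). Mmp16 and Mmp17 were under 5 CPM in every library and were not called. Both were called lower in myotubes over myoblasts when myotube replicate 1 was left out (edgeR adjusted p = 0.0247 and 0.0156), and the remaining myotube library had 8 counts of Mmp16 and 0 counts of Mmp17. Mmp16 was also called lower in myotubes over reserve cells in DESeq2 (adjusted p = 0.037), with library totals (edgeR adjusted p = 0.0335), without a filter (adjusted p = 0.0476) and, as was Mmp17, when myotube replicate 1 was left out (adjusted p = 0.00475 for Mmp16 and 0.0263 for Mmp17). Mmp25 had no count.

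Of the remaining MMPs, the 5 that passed the filter were all called lower in myotubes over myoblasts, beside 32.7% of all genes. For higher members the count was 0, also at an unadjusted p under 0.05 in edgeR and in DESeq2. Mmp2 (gelatinase A), which cuts denatured collagen and basement membrane collagen, had 64.1 and 63.5 CPM in myotubes, against 367 and 379 CPM in reserve cells and 97.6 and 97.8 CPM in myoblasts. It was 1.53-fold lower in myotubes and 3.82-fold higher in reserve cells than in myoblasts (edgeR adjusted p = 8.57e-06 and 2.12e-08). Between myotubes and reserve cells the log2 fold change was −2.55 ± 0.051 (edgeR adjusted p = 9.88e-09). Mmp11 (stromelysin-3), which furin activates inside the cell, was highest in myoblasts. It had 34.6 and 28.1 CPM in myotubes, against 53.9 and 57.1 CPM in reserve cells and 73.6 and 67.3 CPM in myoblasts. Mmp19 and Mmp28 were lower in myotubes than in both other groups, which were not told apart by the test. Mmp19 had 9.88 and 7.33 CPM in myotubes, against 31.1 and 32.5 CPM in reserve cells and 27.6 and 29.5 CPM in myoblasts. Mmp28 (epilysin) had 3.56 and 1.86 CPM in myotubes, against 18.3 and 17.1 CPM in reserve cells and 18.0 and 15.3 CPM in myoblasts. In reserve cells over myoblasts their log2 fold changes were 0.15 and 0.09 with 95% intervals of −0.16 to 0.47 and −0.45 to 0.62. In myotubes over myoblasts they were −1.74 and −2.64 (edgeR adjusted p = 1.37e-05 and 3.88e-05). Mmp23 averaged 1.3 CPM in myotubes, against 1.56 CPM in reserve cells and 2.83 CPM in myoblasts. Its call in myotubes over myoblasts (edgeR adjusted p = 0.0319) was lost with the replicate block (adjusted p = 0.0521), in DESeq2 (adjusted p = 0.11) and without any 1 of the 4 libraries compared (adjusted p of 0.0637 to 0.148). Mmp9 (gelatinase B) did not pass the filter, with 2 and 0 counts in myotubes, against 2 and 6 in reserve cells and 15 and 5 in myoblasts, and Mmp21 had 2 counts, in 1 myoblast library. Exons of 4 tested MMPs overlap a gene on the other strand, and the reads of each pair cannot be told apart there. Mmp19 shares 789 bases with Tmem198b, which had 209 and 252 counts in myotubes, against 462 and 495 in reserve cells and 726 and 848 in myoblasts. Mmp19 itself had 139 and 126 counts in myotubes, against 617 and 627 in reserve cells and 473 and 640 in myoblasts, so that both genes were lowest in myotubes. Mmp24 shares 637 bases with BC029722, which had more counts than Mmp24 in all 6 libraries (514 and 614 in myotubes, against 669 and 515 in reserve cells and 386 and 629 in myoblasts). Mmp11 shares 155 bases with Chchd10, which was highest in myotubes (619 and 768 counts, against 243 and 214 in reserve cells and 100 and 80 in myoblasts). Mmp28 shares 466 bases with 1700020L24Rik, which had 5 to 64 counts in a library.

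The collagenase, stromelysin and elastase genes that lie side by side on chromosome 9 were nearly silent in all 3 groups. Between 7272514 and 7699585 of the mm10 assembly lie Mmp13, Mmp12, Mmp1b, Mmp3, Mmp10, Mmp8, Mmp27, Mmp20 and Mmp7. The 9 genes together had 7 and 0 counts in myotubes, against 2 and 0 in reserve cells and 9 and 6 in myoblasts, and 6 of the 9 had no count. The counts in myoblasts were all from Mmp10, a stromelysin, which had 0 counts in both other groups. Against a floor of 3 counts over the group it was at least 4.02-fold lower in myotubes and at least 5.04-fold lower in reserve cells than in myoblasts, and it was not tested. The start regions of these genes differed in base composition from those of the tested members. RefSeq promoters (GRCm38.p6, 250 bases before to 50 after the start) were found for 35 members, and 19 of the tested members had 20 of them. The median GC content was 65.3% in the 20 promoters of tested members, 40.7% in the 11 promoters of the chromosome 9 genes and 52.7% over all 32851 promoters. A TATA box (TATAAA, both strands) was in 8 of the 11 and in 2 of the 20, and in 13.6% of all promoters. An AP-1 motif (TGANTCA, both strands) was in 7 of the 11 and in 0 of the 20, and in 7.81% of all promoters. A GC box (GGGCGG, both strands) was in 0 of the 11 and in 16 of the 20, and in 35.7% of all promoters. Untested members elsewhere did not share the low GC content of the cluster. It was 77.3% for Adamts3 and Adamts20, 70% for Adamts9, 66% for Adamts18, 63.3% for Mmp25, 54.7% for Adamts13 and 54.3% for Mmp21. All of these but Mmp21 held a GC box, none held an AP-1 motif, and only Mmp21 held a TATA box. The promoters of a collagenase and a stromelysin of the silent cluster are printed as examples of its start regions, with AP-1 and TATA letters in capitals. Mmp13 lies at chr9:7272264-7272563 (plus strand) and Mmp3 at chr9:7445572-7445871 (plus strand).
Mmp13: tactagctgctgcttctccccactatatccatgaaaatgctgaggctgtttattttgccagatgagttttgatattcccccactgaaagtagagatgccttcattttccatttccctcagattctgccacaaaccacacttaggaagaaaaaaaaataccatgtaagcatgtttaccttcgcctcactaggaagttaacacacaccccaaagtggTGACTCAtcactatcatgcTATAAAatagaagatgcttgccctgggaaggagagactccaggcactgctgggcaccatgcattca
Mmp3: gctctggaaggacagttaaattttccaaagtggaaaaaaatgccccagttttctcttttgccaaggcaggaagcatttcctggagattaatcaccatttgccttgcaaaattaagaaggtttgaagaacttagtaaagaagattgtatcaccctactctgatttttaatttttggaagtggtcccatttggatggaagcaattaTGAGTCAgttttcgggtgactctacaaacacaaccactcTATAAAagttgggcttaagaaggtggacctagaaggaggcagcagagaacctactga

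Among the ADAMTS proteases, 10 of 13 tested genes were higher in reserve cells over myoblasts and 0 lower, beside 24.3% higher over all genes. The count of lower genes was also 0 at an unadjusted p under 0.05 in edgeR and in DESeq2. In myotubes over myoblasts 7 were higher and 4 lower, beside 32.6% and 32.7% of all genes. In myotubes over reserve cells 1 was higher and 10 lower, beside 27.2% and 28.4%. Adamts8, Adamts15, Adamts16 and Adamts17 passed the filter only through groups in which they were high. Among the 9 other tested genes 6 were higher in reserve cells over myoblasts, 3 higher and 4 lower in myotubes over myoblasts, and 1 higher and 7 lower in myotubes over reserve cells. Adamts1, Adamts4, Adamts5, Adamts8 and Adamts15, which cut the proteoglycans versican or aggrecan, were highest in reserve cells. This holds for these tested genes and not for every enzyme that cuts proteoglycans. Adamts5 had 35.4 and 36.5 CPM in myotubes, against 152 and 146 CPM in reserve cells and 13.4 and 14.3 CPM in myoblasts. The groups did not overlap, and myotubes lay between the others. It was 10.7-fold higher in reserve cells and 2.59-fold higher in myotubes than in myoblasts (edgeR adjusted p = 1.34e-08 and 9.73e-07). Its neighbour on chromosome 16, Adamts1, had the same order of groups, with 30.4 and 39.3 CPM in myotubes, against 87.5 and 91.0 CPM in reserve cells and 21.8 and 24.4 CPM in myoblasts. Adamts4 had 35.1 and 30.1 CPM in myotubes, against 171 and 169 CPM in reserve cells and 47.8 and 40.5 CPM in myoblasts. Unlike Adamts5, it was lower in myotubes than in myoblasts, with a log2 fold change of −0.44 ± 0.11 (edgeR adjusted p = 0.00615). In reserve cells over myoblasts the value was 1.94 ± 0.1 (edgeR adjusted p = 1.71e-06). Adamts15 and Adamts8, a second neighbouring pair, on chromosome 9, had few counts. Adamts15 had 12 and 8 counts in myotubes, against 90 and 66 in reserve cells and 2 and 2 in myoblasts, and its call in myotubes over myoblasts (edgeR adjusted p = 0.00854) was lost without myoblast replicate 2 (adjusted p = 0.0514). Adamts8 had 10 and 14 counts in myotubes, against 56 and 46 in reserve cells and 0 in both myoblast libraries. Against a floor of 3 counts over the group, Adamts8 was at least 9.94-fold higher in myotubes and at least 33.7-fold higher in reserve cells than in myoblasts. Its call in myotubes over reserve cells (edgeR adjusted p = 0.0208) was lost in DESeq2 (adjusted p = 0.0659) and without any 1 of those 4 libraries (adjusted p of 0.0651 to 0.125).

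The procollagen N-proteinases, which remove the amino-terminal propeptide of fibrillar procollagens, went different ways. Adamts2 had 20.1 and 22.9 CPM in myotubes, against 112 and 105 CPM in reserve cells and 18.7 and 20.1 CPM in myoblasts. It was 5.6-fold higher in reserve cells than in myoblasts (edgeR adjusted p = 1.61e-07). In myotubes over myoblasts its log2 fold change was 0.15 with a 95% interval of −0.07 to 0.36, and the sign turned with library totals (−0.13). Adamts14 had 145 and 138 CPM in myotubes, against 52.8 and 52.2 CPM in reserve cells and 51.0 and 47.9 CPM in myoblasts. It was 2.86-fold higher in myotubes than in myoblasts and 2.69-fold higher than in reserve cells (edgeR adjusted p = 3.02e-07 and 8.65e-07). For reserve cells over myoblasts the interval of its log2 fold change was −0.08 to 0.25. Adamts3, the other enzyme of this kind, had at most 6 counts in a library. Per length Adamts14 had 50.6 ± 1.5 TPM in myotubes, against 24.7 ± 0.11 TPM in reserve cells and 23.6 ± 1 TPM in myoblasts. Adamts2 had 8.88 ± 3.8 TPM in myotubes, against 45.0 ± 2.3 TPM in reserve cells and 11.9 ± 2.5 TPM in myoblasts. The order of the 2 genes was thus reversed in reserve cells relative to the other groups.

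Adamts7, which cleaves cartilage oligomeric matrix protein, and Adamts6 were lower in myotubes and higher in reserve cells than in myoblasts. Adamts7 had 50.1 and 56.7 CPM in myotubes, against 96.9 and 101 CPM in reserve cells and 75.4 and 76.7 CPM in myoblasts. Adamts6 had 30.3 and 34.0 CPM in myotubes, against 70.8 and 73.5 CPM in reserve cells and 41.1 and 41.8 CPM in myoblasts. Both had groups that did not overlap. Exons of Adamts7 share 122 bases with Tbc1d2b on the other strand, which had 164 and 181 counts in myotubes, against 987 and 873 in reserve cells and 907 and 1084 in myoblasts. Adamts10, a member linked to fibrillin microfibrils, had 2.2 and 0.81 CPM in myotubes, against 9.38 and 10.5 CPM in reserve cells and 10.7 and 14.9 CPM in myoblasts. It was 8.68-fold lower in myotubes than in myoblasts (edgeR adjusted p = 0.000151). Its size moved with the myotube libraries, to a log2 fold change of −3.97 without myotube replicate 1 and of −2.55 without myotube replicate 2. Adamts16 had 3.98 and 2.91 CPM in myotubes, against 12.8 and 13.3 CPM in reserve cells and 0 and 0.78 CPM in myoblasts. Its value in myotubes over reserve cells, −1.92 on the log2 scale (edgeR adjusted p = 0.0226), was not called in DESeq2 (adjusted p = 0.319) or without any 1 of those 4 libraries (adjusted p of 0.0574 to 0.105). In DESeq2 it was also not called in myotubes over myoblasts (adjusted p = 0.0806). Adamts17 had 25 and 21 counts in myotubes, against 11 and 7 in reserve cells and 0 in both myoblast libraries. This made it at least 19-fold higher in myotubes and at least 5.95-fold higher in reserve cells than in myoblasts. Adamts12 averaged 2.89 CPM in myotubes, against 5.1 CPM in reserve cells and 3.15 CPM in myoblasts and was not called in any comparison. Adamts9, Adamts18 and Adamts20 had at most 10 counts in a library, and Adamts13 and Adamts19 had none.

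All 5 ADAMTS-like genes were higher in reserve cells over myoblasts, beside 24.3% of all genes. In myotubes over myoblasts 4 were higher and 0 lower, beside 32.6% and 32.7% of all genes. DESeq2 called 3 higher in the second comparison, and the count of lower genes was also 0 at an unadjusted p under 0.05 in edgeR and in DESeq2. Without Adamtsl2, which did not pass the filter in myoblasts, the edgeR counts were 4 of 4 and 3 of 4 higher. Adamtsl2, a binding partner of fibrillin and of latent TGF-β binding protein, had 72.2 and 69.4 CPM in myotubes, against 26.8 and 32.3 CPM in reserve cells and 0 CPM in both myoblast libraries. In counts this was 1015 and 1194 in myotubes and 532 and 623 in reserve cells. Against a floor of 3 counts over the group it was at least 915-fold higher in myotubes and at least 382-fold higher in reserve cells than in myoblasts. Between myotubes and reserve cells the log2 fold change was 1.26 ± 0.11 (edgeR adjusted p = 4.49e-05). Adamtsl5, another fibrillin-binding member, had 350.4 and 349.8 CPM in myotubes, against 113 and 128 CPM in reserve cells and 69.0 and 68.3 CPM in myoblasts. It was 5.1-fold higher in myotubes and 1.76-fold higher in reserve cells than in myoblasts (edgeR adjusted p = 1.44e-08 and 1.94e-05). Adamtsl1 had 56.2 and 46.2 CPM in myotubes, against 76.4 and 81.0 CPM in reserve cells and 1.23 and 1.66 CPM in myoblasts. It was 34.8-fold higher in myotubes and 53.5-fold higher in reserve cells than in myoblasts, and the difference between myotubes and reserve cells was small beside these (log2 fold change −0.62 ± 0.11). Adamtsl3 was raised in reserve cells, with 13.4 and 13.3 CPM in myotubes, against 84.5 and 87.3 CPM in reserve cells and 14.0 and 12.5 CPM in myoblasts. Its myotube and myoblast libraries overlapped. The log2 fold change in myotubes over myoblasts was 0.01 with an interval of −0.20 to 0.23. With library totals it was −0.26 (edgeR adjusted p = 0.0317), beside a median over all genes of −0.27 in that fit. Adamtsl4, which takes part in microfibril assembly in the eye, had 18.3 and 15.2 CPM in myotubes, against 34.8 and 34.9 CPM in reserve cells and 13.6 and 12.9 CPM in myoblasts. Its call in myotubes over myoblasts (log2 fold change 0.34, edgeR adjusted p = 0.0467) was lost with the replicate block (adjusted p = 0.0528), in DESeq2 (adjusted p = 0.14) and without any 1 library except myotube replicate 2 (adjusted p of 0.0891 to 0.252).

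**Figure D3:**
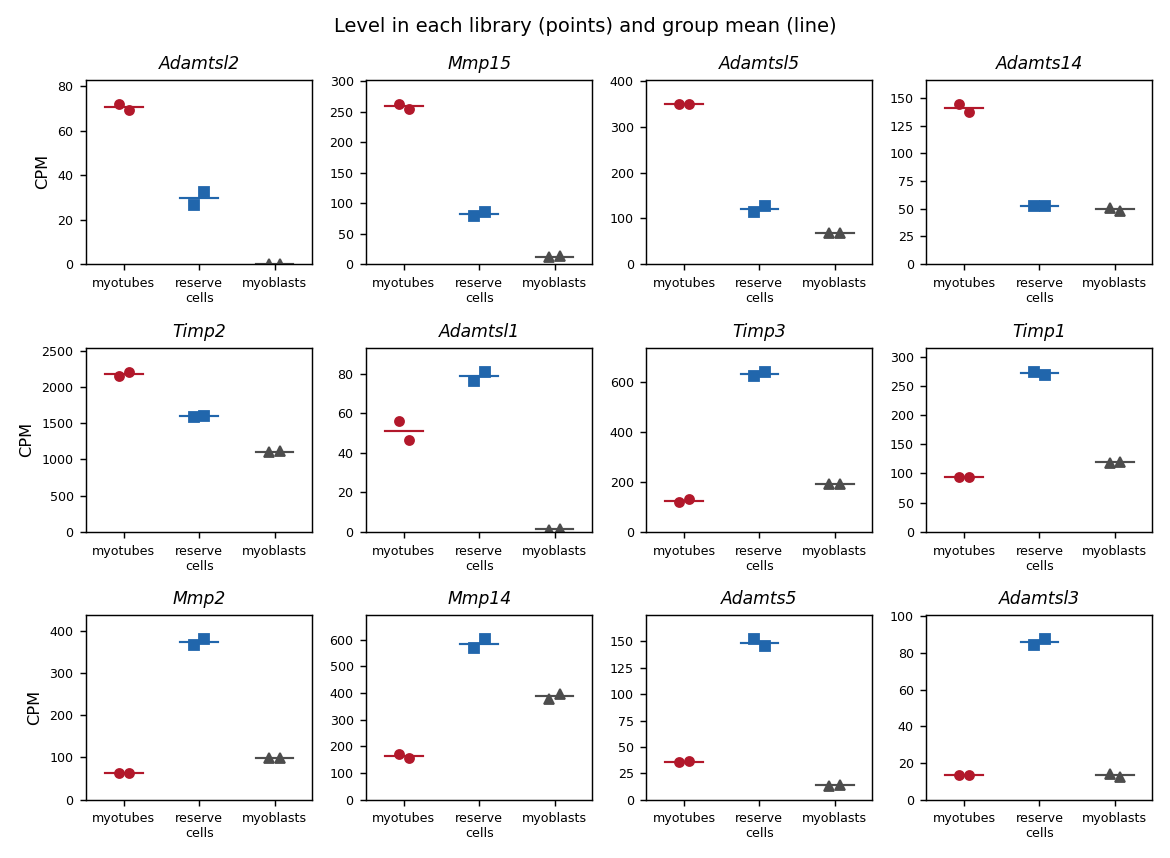
Level of 12 members in each library (y axis, CPM from 0; points, 2 a group; lines, group means). Adamtsl2, Mmp15, Adamtsl5, Adamts14 and Timp2 are highest in myotubes, and Adamtsl1, Timp3, Timp1, Mmp2, Mmp14, Adamts5 and Adamtsl3 are highest in reserve cells.

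The 5 members that were higher in myotubes over reserve cells were Adamtsl2, Mmp15, Adamtsl5, Adamts14 and Timp2. Their promoters are printed as the start regions of the myotube-high members, with E-box (CAGCTG, a sequence bound by the muscle regulators MyoD and myogenin), GC box and TATA box letters in capitals on either strand. The E-box is a palindrome and is counted once. The RefSeq starts lay 0 to 95 bases from the start of each gene's leading annotated transcript. They lie at chr2:27079129-27079428 (plus strand) for Adamtsl2, chr8:95352046-95352345 (plus strand) for Mmp15, chr10:80348399-80348698 (minus strand) for Adamtsl5, chr10:61273370-61273669 (minus strand) for Adamts14 and chr11:118355362-118355661 (minus strand) for Timp2.
Adamtsl2: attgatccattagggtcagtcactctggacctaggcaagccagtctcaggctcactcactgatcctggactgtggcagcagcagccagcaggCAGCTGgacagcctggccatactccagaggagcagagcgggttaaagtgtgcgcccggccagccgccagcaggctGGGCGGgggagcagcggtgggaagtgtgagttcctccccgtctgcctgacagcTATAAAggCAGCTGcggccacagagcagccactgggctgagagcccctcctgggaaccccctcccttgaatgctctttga
Mmp15: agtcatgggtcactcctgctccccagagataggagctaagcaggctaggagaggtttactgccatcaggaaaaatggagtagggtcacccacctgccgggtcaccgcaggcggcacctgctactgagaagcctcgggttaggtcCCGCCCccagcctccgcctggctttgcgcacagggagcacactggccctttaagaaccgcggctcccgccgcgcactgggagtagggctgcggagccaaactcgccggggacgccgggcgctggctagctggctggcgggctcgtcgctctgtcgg
Adamtsl5: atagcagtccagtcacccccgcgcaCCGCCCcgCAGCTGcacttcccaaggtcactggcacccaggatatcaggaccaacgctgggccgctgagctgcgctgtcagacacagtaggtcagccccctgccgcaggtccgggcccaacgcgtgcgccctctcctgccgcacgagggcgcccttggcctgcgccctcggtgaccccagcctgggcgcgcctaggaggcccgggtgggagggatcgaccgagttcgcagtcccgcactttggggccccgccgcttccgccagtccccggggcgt
Adamts14: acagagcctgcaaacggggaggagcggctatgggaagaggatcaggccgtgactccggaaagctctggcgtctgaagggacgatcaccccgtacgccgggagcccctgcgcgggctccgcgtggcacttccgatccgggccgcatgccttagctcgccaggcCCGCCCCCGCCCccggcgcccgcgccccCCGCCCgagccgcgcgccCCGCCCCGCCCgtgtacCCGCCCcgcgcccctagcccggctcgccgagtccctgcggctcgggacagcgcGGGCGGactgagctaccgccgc
Timp2: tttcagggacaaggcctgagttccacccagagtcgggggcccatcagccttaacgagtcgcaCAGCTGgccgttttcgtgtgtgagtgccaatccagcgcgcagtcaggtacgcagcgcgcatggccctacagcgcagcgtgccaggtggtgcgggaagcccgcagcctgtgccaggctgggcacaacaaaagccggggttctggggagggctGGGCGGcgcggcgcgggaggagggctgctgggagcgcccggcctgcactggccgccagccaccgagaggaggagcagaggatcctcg

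The Adamtsl2 promoter had 2 E-boxes and 1 TATA box, and Adamtsl5 and Timp2 had 1 E-box each. The letters of the E-box were not in the windows of Mmp15 and Adamts14, and Adamts14 had 7 GC boxes. Over the 20 promoters of tested members 7 held an E-box, and 16.3% of all promoters did. The TEAD motif (GGAATG, both strands) was in 1 of the 20, the promoter of Timp1, and in 14.7% of all promoters. For comparison, 3 members that were highest in reserve cells are shown with the same marks. These are Timp3 at chr10:86300162-86300461 (plus strand), Mmp14 at chr14:54431348-54431647 (plus strand) and Adamts2 at chr11:50601835-50602134 (plus strand).
Timp3: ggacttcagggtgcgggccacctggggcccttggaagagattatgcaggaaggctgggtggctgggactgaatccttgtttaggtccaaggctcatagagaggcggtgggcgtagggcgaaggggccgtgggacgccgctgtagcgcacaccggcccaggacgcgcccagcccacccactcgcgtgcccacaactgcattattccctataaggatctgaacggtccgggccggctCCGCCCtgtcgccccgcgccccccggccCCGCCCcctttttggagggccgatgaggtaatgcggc
Mmp14: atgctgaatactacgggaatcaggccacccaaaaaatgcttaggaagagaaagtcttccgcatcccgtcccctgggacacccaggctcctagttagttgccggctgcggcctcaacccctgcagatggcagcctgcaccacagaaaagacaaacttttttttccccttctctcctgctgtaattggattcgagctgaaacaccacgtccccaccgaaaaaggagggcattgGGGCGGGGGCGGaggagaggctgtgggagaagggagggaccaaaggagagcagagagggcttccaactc
Adamts2: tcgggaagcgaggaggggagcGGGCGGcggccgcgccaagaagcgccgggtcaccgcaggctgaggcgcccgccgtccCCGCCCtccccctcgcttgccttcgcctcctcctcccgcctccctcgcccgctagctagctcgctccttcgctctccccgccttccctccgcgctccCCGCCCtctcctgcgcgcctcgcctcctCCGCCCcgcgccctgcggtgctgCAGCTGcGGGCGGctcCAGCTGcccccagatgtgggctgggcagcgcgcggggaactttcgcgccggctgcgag

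Adamts2 had 2 E-boxes and 5 GC boxes, and Timp3 and Mmp14 had 2 GC boxes each and no E-box. E-boxes were thus present in both printed sets and absent from members of both. The 3 promoters of reserve-high members are examples. Of the other tested members highest in reserve cells with a promoter, Adamts12 held an E-box. Adamts1, Adamtsl3, Adamtsl4, Mmp28 and Timp1 held none. Of the others highest in myotubes, Adamts17 and Timp4 held 1 each and Mmp24 held none. These matches describe letters only.

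Summed over roles, reserve cells had the highest levels of all roles except the ADAMTS-like genes. Summed MMPs came to 305 ± 24 TPM in myotubes, against 1009 ± 50 TPM in reserve cells and 593 ± 12 TPM in myoblasts (SD, n = 2). Summed TIMPs came to 1344 ± 34 TPM in myotubes, against 2136 ± 33 TPM in reserve cells and 1177 ± 3.3 TPM in myoblasts. The ratio of summed TIMP to summed MMP was 4.43 ± 0.46 in myotubes, against 2.12 ± 0.073 in reserve cells and 1.98 ± 0.034 in myoblasts. Timp2 held 81.3% of the TIMP sum in myotubes, against 48.9% in reserve cells and 62.8% in myoblasts. Without Timp2 the ratio was 0.83 ± 0.085 in myotubes, against 1.08 ± 0.043 in reserve cells and 0.74 ± 0.017 in myoblasts, so the order of the groups depended on that 1 gene. ADAMTS proteases summed to 126 ± 5.2 TPM in myotubes, against 335 ± 3 TPM in reserve cells and 138 ± 2.1 TPM in myoblasts. ADAMTS-like genes summed to 370 ± 23 TPM in myotubes, against 235 ± 11 TPM in reserve cells and 86.8 ± 5.6 TPM in myoblasts, of which Adamtsl5, with transcript shares that differed between replicates, made up most in each group. TPM carries no TMM factors, which were 0.90 and 0.89 for myotubes, 1.03 for both reserve cell libraries and 1.09 and 1.08 for myoblasts. Levels in myotubes thus come out lower beside myoblasts in TPM than in CPM. The order of myotubes and myoblasts in the ADAMTS protease sum is therefore not read as a difference. These sums are descriptions and were not tested.

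**Figure D4:**
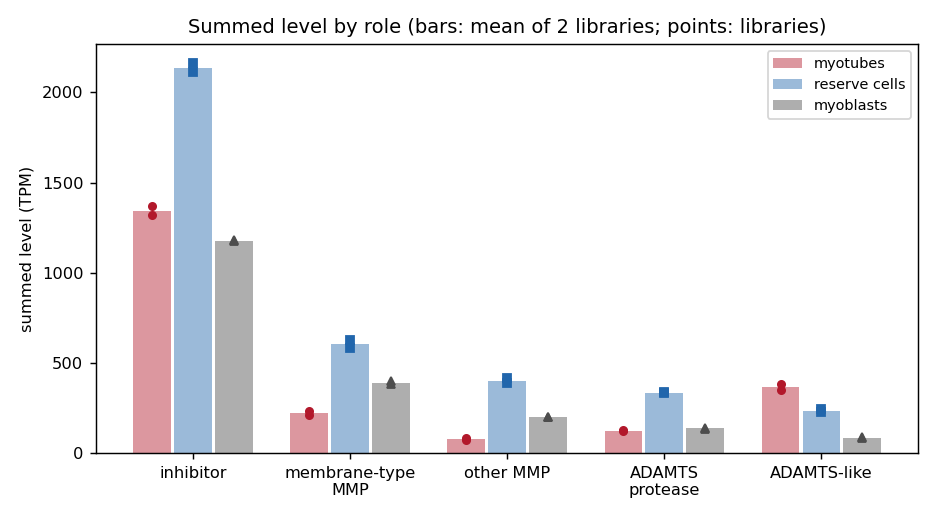
Summed level of each role per library (y axis, TPM from 0; bars, mean of 2 libraries; points, libraries). Reserve cells are highest for the inhibitors, both groups of MMPs and the ADAMTS proteases, and myotubes are highest for the ADAMTS-like genes.

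TPM values rest on how the counts were assigned to annotated transcripts. Of the 25 members examined, Timp4 and those averaging 10 CPM or more in any group, 11 had 1 transcript with at least 90% of the counts in every library. These include Timp2, Timp3, Mmp2, Mmp14, Mmp15, Adamts1, Adamts5, Adamts14 and Adamtsl2. In 10 others the share of a transcript differed by over 20 points between replicates of a group. For Adamtsl1 the retained-intron transcript Adamtsl1-202 took 76.6% and 16.6% of the counts in the 2 myotube libraries, while the gene's summed counts there were 791 and 794. For Adamtsl4 the transcript Adamtsl4-201 took 98.8% and 24.1% in myotubes, with summed counts of 258 and 261. For Adamtsl5 the retained-intron transcript Adamtsl5-203 took 47.8% and 9.73% in myotubes, with summed counts of 4928 and 6013, and its retained-intron transcripts together held 79.5% and 54.8% there. In CPM the 2 libraries of Adamtsl5 were within 1 CPM of each other. Gene sums were thus close where transcript shares were not, and no transcript difference between groups is reported for these members. For Adamts6, Adamts10 and Adamts16 the leading transcript is annotated as a target of nonsense-mediated decay. Its share in a library was 42.8% to 88.3%, 5.38% to 61.3% and 21.7% to 100%. The gene levels given for them include these counts and are not levels of protein-coding transcripts alone. Mmp28-203 had 58 and 66 counts in reserve cells, 16% and 20% of the gene, and 60 and 72 in myoblasts, 19.4% and 21.7%. It had 0 counts in both myotube libraries, where the gene had 50 and 32 counts in all.

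Lists of other genes of matrix proteolysis were counted in the same fit. The shares of all genes to set beside their counts are 32.6% higher and 32.7% lower in myotubes over myoblasts, 24.3% and 21.8% in reserve cells over myoblasts, and 27.2% and 28.4% in myotubes over reserve cells. The plasminogen system, whose serine protease plasmin activates several MMPs, had 8 of 9 tested genes lower in myotubes over myoblasts, 1 higher and 5 lower in reserve cells over myoblasts, and 1 higher and 7 lower in myotubes over reserve cells. Plau, the urokinase-type activator, and its receptor Plaur had log2 fold changes of −3.29 and −4.96 in myotubes over myoblasts and of −1.19 and −2.81 in reserve cells over myoblasts. In reserve cells the list thus ran lower than in myoblasts at a median of −1.08, beside a members' median of 1.23. Among activators, surface inhibitors and clearance receptors, 4 of 9 were higher and 3 lower in reserve cells over myoblasts, and 1 was higher and 7 lower in myotubes over reserve cells. Thbs1, a matrix glycoprotein bound by several metalloproteases, had a log2 fold change of 2.92 in reserve cells over myoblasts, and Cd44, a surface docking site of MMPs, had −1.80. Procollagen C-proteinases and enhancers were lower in 4 of 4 in myotubes over reserve cells. Of 12 tested matrix substrates, 9 were higher and 2 lower in reserve cells over myoblasts, 1 was higher and 10 lower in myotubes over myoblasts, and 12 were lower in myotubes over reserve cells.

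Marker lists also differed between myotubes and reserve cells. In that comparison the 20 members called lower had log2 fold changes of −2.75 to −0.62, the 12 matrix substrates −2.69 to −2.12 and the 5 proliferation markers −2.42 to −2.08. Of the 20 members, 6 lay within the range of these lists, 12 lay nearer 0 and 2 farther from it. The 6 muscle identity markers had 1.16 to 2.29, and the 5 members called higher had 0.45 to 1.66. The fibroblast list (3 of 6 genes at or above 1 CPM) summed to 24.3 to 26.0 CPM in myotubes, 88.2 to 101 CPM in reserve cells and 212 to 219 CPM in myoblasts. The part that unfused cells in the myotube libraries and muscle RNA in the reserve cell libraries had in the members' values was not tested.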

How the data were processed

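Poly(A) RNA of the 6 libraries was sequenced in paired-end mode (150 bases). The authors aligned reads to mm10 with HISAT2, filtered alignments with SAMtools and assembled transcripts with StringTie. They deposited whole-number estimated counts per transcript, 1 file a library. Their DESeq2 was not used as a source of values, and the table of the whole series was not used here. The sources used here do not give versions, the annotation release or whether strand was used.

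Of 142604 transcripts, 141374 were matched to genes through GENCODE M21 (GRCm38), and estimated counts were summed to genes. Unmatched transcripts held 0.375% to 0.872% of a library. All genes were fitted in edgeR 4.0.16 under R 4.3.3 (TMM factors, a minimum count of 10 in filterByExpr, glmQLFit and glmQLFTest on the 6 libraries in 1 fit, Benjamini-Hochberg adjustment over 15467 genes, threshold 0.05), which was tested on simulated data. TPM was computed from the estimated counts and annotated transcript lengths, without TMM factors. Bounds and floors (3 counts) cover counting error only. The alternatives numbered 13: DESeq2 1.42.0, RLE factors, scaling by library totals, all genes unfiltered, at least 10 CPM in 2 libraries, the replicate number as a block, separate fits and each library left out. Values per library are given for the TIMPs and for members with at least 10 CPM in a group, and the text names at most 4 genes of a list, among those with the smallest adjusted p. Members and lists were chosen with earlier results of these data known.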

Additional observations from a re-analysis of the deposited data

Results flagged for a closer look

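In 7 members the myotubes and the reserve cells differed from myoblasts in opposite directions, both past the edgeR threshold. The share of all genes with such opposite calls is not given here, so the count is not read as particular to the members. Myotubes over reserve cells is the difference of those changes, so its sign followed from this choice and its p-values add no support. In that comparison the edgeR log2 fold change was −2.55 for Mmp2 (adjusted p = 9.88e-09) and −2.34 for Timp3 (adjusted p = 1.53e-08). It was −1.85 for Mmp14 (adjusted p = 8.06e-08) and −1.53 for Timp1 (adjusted p = 8.5e-08). It was −2.38 for Adamts4 (adjusted p = 4.68e-07), −1.16 for Adamts6 (adjusted p = 5.15e-06) and −0.89 for Adamts7 (adjusted p = 2.86e-05). All 7 were lower in myotubes and higher in reserve cells than in myoblasts, and both libraries of a group lay on the same side of the other groups. The smallest of the changes against myoblasts were those of Timp1 in myotubes (−0.34) and Adamts7 in reserve cells (0.38). The groups had 2 libraries each, so no library was tested for standing apart from its group.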

How the results depend on the processing

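Of the 6 counts of members called, 5 stayed within 1.5 times under all alternatives. The count lower in reserve cells over myoblasts was 1 and ranged from 0 to 1 when a library was left out. With the replicate block the counts were 12 higher and 11 lower in myotubes over myoblasts, 21 and 1 in reserve cells over myoblasts, and 5 and 20 in myotubes over reserve cells. The block ended the calls of Adamtsl4, Mmp23 and Timp4 in myotubes over myoblasts and changed no other member's call. Deviations of same-numbered libraries had correlations of −0.032 to 0.040, so no pairing by number was seen. With 2 libraries a group these values cannot exclude it. With library totals 36.6% of all calls in myotubes over myoblasts were higher, and 34.1% in myotubes over reserve cells, beside 49.96% and 48.8% with TMM. Signs turned for members that were not called. With library totals these were Adamts2 (−0.13) and Adamtsl3 (−0.26), both in myotubes over myoblasts, and without a filter Adamtsl3 (−0.015). With a library left out, myotubes over myoblasts ranged from −0.29 to 0.038 for Adamts12, from −0.078 to 0.084 for Adamtsl3 and from −1.98 to 0.097 for Mmp16. Likewise Mmp24 ranged from −0.14 to 0.67 in myotubes over reserve cells and Mmp28 from −0.032 to 0.20 in reserve cells over myoblasts. The causes were not tested. With 2 libraries a group and few counts for Timp4, Adamts8, Adamts15, Adamts16, Adamts17, Mmp16, Mmp17 and Mmp23, only large differences in them could be called.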

Other observations

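Other protease families were counted in the same fit, where 32.6% of all genes were higher and 32.7% lower in myotubes over myoblasts, 24.3% and 21.8% in reserve cells over myoblasts, and 27.2% and 28.4% in myotubes over reserve cells. Of 10 tested membrane-anchored ADAM proteases, 1 was higher and 5 were lower in myotubes over myoblasts, 2 and 3 in reserve cells over myoblasts, and 2 and 5 in myotubes over reserve cells. Adam12, a fusion-associated member of muscle, had a log2 fold change of 2.46 in reserve cells over myoblasts and −2.18 in myotubes over reserve cells (edgeR adjusted p = 1.9e-05 and 2.7e-05). Adam8 ran the other way, with −3.01 and 1.95 in the same comparisons.

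Of 11 tested cathepsins and cystatins, the lysosomal cysteine and aspartic proteases with their inhibitors, 5 were higher and 4 lower in myotubes over myoblasts, 4 and 4 in reserve cells over myoblasts, and 4 and 6 in myotubes over reserve cells. The aspartic protease Ctsd was higher in both, with log2 fold changes of 1.43 in myotubes over myoblasts and 1.14 in reserve cells over myoblasts. Ctsc had 17.3 and 19.2 CPM in myotubes, against 4.94 and 3.52 CPM in reserve cells and 0 and 0.14 CPM in myoblasts, where it was too low for a fold to be given. These lists are given as counts with no set test.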
